A study of Homo sapiens with 9 samples.

Results

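Integrins are cell-surface receptors made of an alpha and a beta subunit that join the extracellular matrix outside the cell to the actin or keratin cytoskeleton inside it. The alpha subunit largely sets which matrix protein is bound, and most alpha subunits of epithelial cells share the beta subunit encoded by ITGB1. In colon epithelium the laminin receptors made from ITGA6 and ITGB4 anchor cells to the basement membrane in hemidesmosomes, while receptors for collagen and fibronectin take part in spreading and migration.

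The genes described here are 10 integrin subunit genes, namely ITGA1, ITGA2, ITGA3, ITGA5, ITGA6, ITGA11, ITGAV, ITGAX, ITGB1 and ITGB4. They were taken as a fixed list of names, chosen with earlier results of these data known. Each was matched to 1 Ensembl identifier among the 63677 gene identifiers in the count files. Their transcripts were measured by RNA-Seq in SW480, a cell line from a human colon adenocarcinoma, and in 2 lines derived from it that express BASP1, a gene that is little expressed in the parental cells. The purpose of the comparison was to see how the transcriptome differs once BASP1 is present, either from an introduced construct or from its own locus. Each line had 3 libraries (n = 3).

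SW480 was the parental line and carried no vector. SW480-B expressed BASP1 ectopically from the CMV promoter of a stably introduced plasmid and had been grown from a single cell under G418. SW480-gRNA-B-all, also called the activated line below, carried 3 lentiviral components, the MS2-P65-HSF1 activator, dCas9-VP64 and pooled sgRNAs directed to the BASP1 promoter, and its dCas9-VP64-positive cells had passed a single-cell cloning step. Hygromycin B and puromycin were the drugs used in its selection. No vector-only line was among the sequenced samples, so BASP1, vector, drug selection and cloning cannot be told apart in the comparisons with SW480. Between the derived lines, the source of BASP1 cannot be told apart from vector, drug selection and cloning either. The sample labels give the treatment as BASP1 activation for all 9 libraries, the parental ones included, and the lines were therefore taken from the sample titles.

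BASP1 itself was measured at 11.3, 8.09 and 0.688 CPM (counts for each 1e+06 counts of a library, scaled by edgeR's TMM factors) for SW480, 266, 269.9 and 255 CPM for SW480-B, and 166, 308 and 305 CPM for SW480-gRNA-B-all, so every library of the derived lines was above the parental ones. Libraries held 25238831 to 29355669 gene counts. A gene at 0 is therefore limited to 3 counts, or 0.0983 to 0.115 CPM, and this limit and all counting intervals cover counting error only. Replicates 2 and 3 of SW480-gRNA-B-all were the closest pair, with 2.08% of genes more than 2-fold apart where other pairs within a line had 10.6% to 30.1%. The widest pair, at 30.1%, was replicates 1 and 3 of SW480, the reference of both comparisons with the parental line. Whether the 3 RNAs of a line came from separate cultures is not stated, and the p-values thus measure only the spread between these samples. Of the 10 colon epithelial markers listed, EPCAM had 279 to 715 CPM and KRT18 1573 to 3594 CPM, whereas KRT20, LGALS4 and CDX1 were at or below 0.903 CPM throughout. VIL1, a brush border gene, was called lower than in SW480 in both derived lines and CDX2, an intestinal transcription factor, in SW480-gRNA-B-all. In SW480-B, CDX2 had 58.3 to 67.8 CPM, above the 28.9 to 41.7 CPM of SW480. EPCAM was below every SW480 library in both derived lines, and none of these 3 differences was called. The sum of the 10 markers was 7908 to 10925 CPM in SW480, 6953 to 11419 CPM in SW480-B and 6321 to 7925 CPM in SW480-gRNA-B-all. In bulk RNA a lower value from fewer cells cannot be told apart from less RNA per cell.

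The RefSeq promoter table held 7 of the 10 genes, and each of these promoters was found once in GRCh37. The sequences shown are the upstream bases of 3 genes that were called as changed in a comparison below and of ITGA2, which lies next to ITGA1 in the same orientation and was not called. They run 5′ to 3′ on the gene's strand and stop at or before the RefSeq start, with matches to GGGCGG (the GC box, read on both strands) in capitals.
ITGA1 (chr5:52083500-52083749, plus strand): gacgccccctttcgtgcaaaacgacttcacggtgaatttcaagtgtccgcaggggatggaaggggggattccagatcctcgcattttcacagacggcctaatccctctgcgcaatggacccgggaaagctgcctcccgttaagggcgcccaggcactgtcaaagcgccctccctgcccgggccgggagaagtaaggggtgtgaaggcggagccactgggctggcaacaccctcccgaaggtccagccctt
ITGA2 (chr5:52284932-52285169, plus strand): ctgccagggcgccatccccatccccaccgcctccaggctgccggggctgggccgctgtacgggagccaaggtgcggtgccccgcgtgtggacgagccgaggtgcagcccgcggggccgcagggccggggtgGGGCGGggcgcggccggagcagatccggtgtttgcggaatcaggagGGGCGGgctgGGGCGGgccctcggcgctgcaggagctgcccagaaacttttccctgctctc
ITGA5 (chr12:54813051-54813300, minus strand): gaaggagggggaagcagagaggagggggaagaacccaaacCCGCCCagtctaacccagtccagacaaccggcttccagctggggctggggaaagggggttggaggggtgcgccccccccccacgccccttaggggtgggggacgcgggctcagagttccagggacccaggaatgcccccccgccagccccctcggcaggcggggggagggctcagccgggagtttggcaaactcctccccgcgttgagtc
ITGA11 (chr15:68724503-68724752, minus strand): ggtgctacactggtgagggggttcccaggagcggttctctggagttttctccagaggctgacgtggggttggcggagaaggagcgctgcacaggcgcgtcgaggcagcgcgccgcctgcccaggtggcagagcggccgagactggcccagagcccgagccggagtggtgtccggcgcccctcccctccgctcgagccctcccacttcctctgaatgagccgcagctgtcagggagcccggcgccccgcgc
The ITGA2 stretch held 3 GC boxes, at 119, 73 and 63 bases before the start (a further one, 9 bases before it, lies outside the stretch), and the ITGA5 stretch held 1 on the opposite strand, 210 bases before the start. The ITGA1 and ITGA11 stretches held none. Of 35116 promoters in the table, 42.64% held at least 1 GC box in the 250 bases before the start. The letters TGANTCA (AP-1), ATCAAAG (TCF/LEF) and CACGTG (E-box), searched on both strands, were present in 6.573%, 2.261% and 6.345% of promoters and in none of these 4. Among the other members in the table, ITGA6 held an E-box and ITGB1 held GC boxes in these 250 bases.

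Levels of different genes were compared per kb of canonical transcript. In SW480 the most abundant members were ITGB1 with a mean of 81.3 CPM per kb, ITGA6 with 78.9, ITGB4 with 73.9 and ITGA3 with 61.1, and the library ranges of these neighbours in the order overlapped. ITGAV (14.2 CPM per kb), ITGA5 (10.0), ITGA1 (7.36) and ITGA2 (5.86) followed, again with overlapping neighbours, and the range of ITGA3 reached down into that of ITGAV (lowest 17.8 against highest 20.4). ITGAX (0.0227 CPM per kb) and ITGA11 (0.00453) lay far below the rest. In SW480-B the order began with ITGA6 at 122 CPM per kb and ITGA3 at 99.7, whereas the order of SW480-gRNA-B-all began with ITGA3 at 164, above ITGB1 at 96.5, with no overlap between those 2 genes. When the length of all annotated exons was used in place of the canonical transcript, a choice made after the data were seen, ITGB1 moved behind ITGA3, ITGA6 and ITGB4 in all 3 lines and the first place in SW480 went to ITGA6. The means of ITGA3 and ITGA6 in SW480-gRNA-B-all were then 81.7 and 81.6 CPM per kb.

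**Figure D1:**
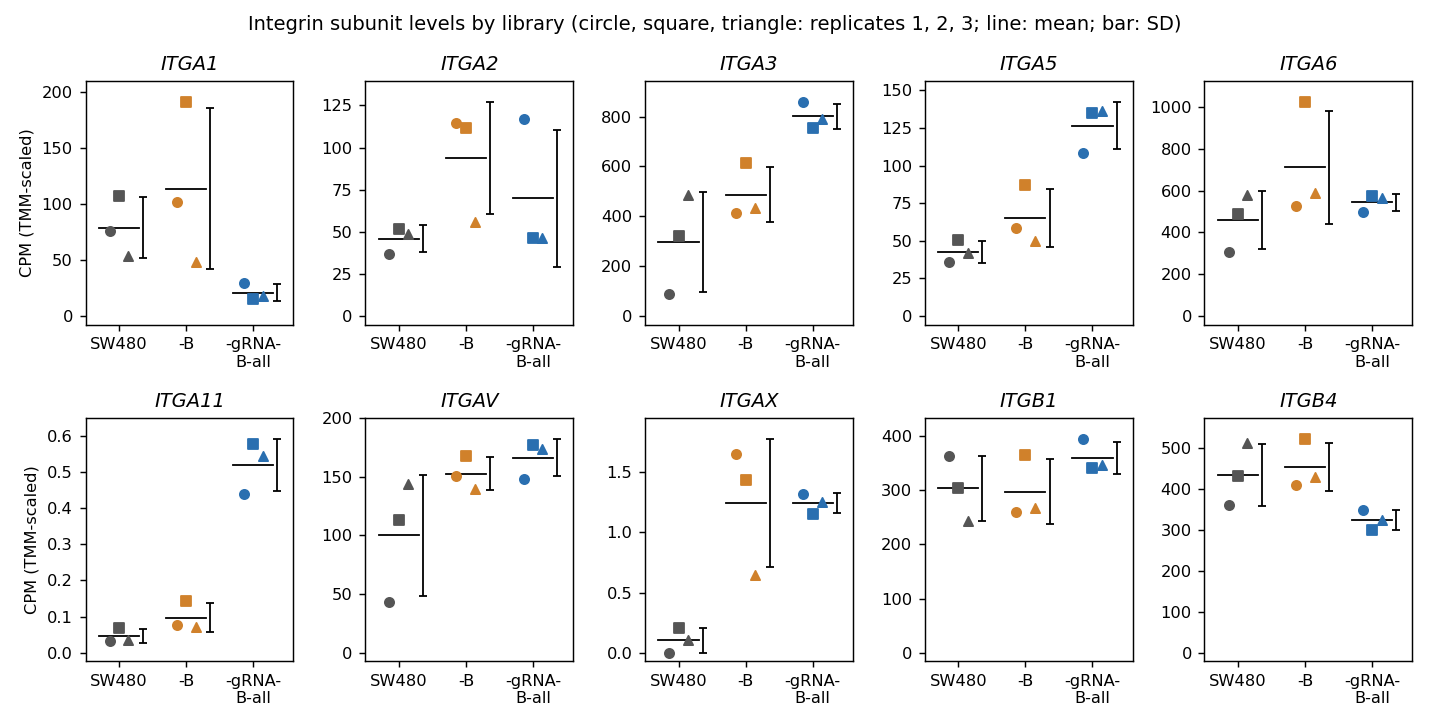
TMM-scaled CPM (vertical axis, a separate linear scale from 0 for each gene) of the 10 integrin subunits in the 3 lines; points are libraries, horizontal lines are means and bars are SD (n = 3). ITGA1 in SW480-gRNA-B-all lies between 15.5 and 29.6 CPM, below every library of the other lines, while ITGA5 lies between 109 and 136 CPM, above them.

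In SW480-gRNA-B-all, ITGA5, ITGA11 and ITGAX were called higher and ITGA1 lower than in SW480, and the other 6 members were not called. A gene was called where edgeR's quasi-likelihood test gave a Benjamini-Hochberg adjusted p under 0.05 over all genes tested and the change was above 2-fold. Of 16100 genes tested, 6.55% were called, 1.89% higher and 4.66% lower, beside 4 of the 10 members, 3 higher and 1 lower. The members' median log2 fold change was 0.64, beside -0.05 over all genes tested, and 8 of 10 were above 0. In 5 members all SW480-gRNA-B-all libraries lay above all SW480 libraries and in 2 below, where 19.1% and 18.6% of all genes tested did so (37.7% together). An unadjusted edgeR p under 0.05 was found for 6 members and for 28.4% of all genes tested. ITGA11 and ITGAX passed the filter on low counts only because of the counts in the derived lines, so these shares and the tests of these 2 genes are a description. The members were also chosen with earlier results of these data known. Member counts set beside all genes, here and in the other comparisons, are therefore a description too.

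ITGA1 (ENSG00000213949, chromosome 5 of GRCh37 from 52083750 to 52255039) encodes the alpha subunit of a collagen receptor that binds basement membrane collagen. It had 76.0, 108 and 53.5 CPM for SW480, 102, 191 and 48.4 CPM for SW480-B and 29.6, 15.5 and 17.7 CPM for SW480-gRNA-B-all. The SW480-gRNA-B-all libraries were the lowest of all 9, and the other lines overlapped widely. Against SW480, ITGA1 fell by 1.95 on the log2 scale (SE 0.35, edgeR adjusted p = 0.0258), with the direction seen in 3 of 3 libraries. The call was lost without SW480 replicate 2 and without replicate 1, 2 or 3 of SW480-gRNA-B-all (edgeR adjusted p between 0.0523 and 0.113), and with replicates 2 and 3 of that line summed (edgeR adjusted p = 0.105). PELO, a ribosome rescue factor whose exons share 499 bases with those of ITGA1 on the same strand, differed by -0.03 on the log2 scale (edgeR adjusted p = 0.943).

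ITGA2 encodes the alpha subunit of another collagen receptor and begins 30131 bases beyond the end of ITGA1. It had 37, 52.0 and 49.0 CPM for SW480, 114, 111 and 55.8 CPM for SW480-B and 117, 46.4 and 46.6 CPM for SW480-gRNA-B-all. Replicate 1 of SW480-gRNA-B-all stood apart from the other libraries of that line, whose range overlapped both other lines, while all SW480-B libraries were above SW480. The log2 difference of SW480-gRNA-B-all from SW480 was 0.57 (standard error 0.39, edgeR adjusted p = 0.365). Without replicate 1 of SW480-gRNA-B-all it was -0.022. Per kb, the ratio of ITGA1 to ITGA2 was 1.501, 1.512 and 0.799 in SW480, 0.649, 1.25 and 0.634 in SW480-B, and 0.185, 0.244 and 0.278 in SW480-gRNA-B-all. With the length of all exons it was 0.108 to 0.162 in SW480-gRNA-B-all and 0.465 to 0.881 in SW480. The ratio was below every SW480 library in all 3 SW480-gRNA-B-all libraries. An exact two-sided permutation test gave p = 0.1, the smallest that 3 against 3 libraries allow, and 0.15 after adjustment over 9 such comparisons.

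ITGA11 (ENSG00000137809, chromosome 15 from 68588870 to 68724502, minus strand) encodes the alpha subunit of a collagen receptor known from fibroblasts. Its counts were 1, 2 and 1 for SW480, 2, 4 and 2 for SW480-B and 13, 17 and 16 for SW480-gRNA-B-all. All SW480-gRNA-B-all libraries were above all others, yet at no more than 0.576 CPM. The summed counts differed 11.3-fold from SW480 (95% exact counting interval 4.12 to 43.2). The fitted log2 fold change was 3.34 (standard error 0.49, edgeR adjusted p = 0.0157). The call was lost without SW480 replicate 2 and without replicate 1, 2 or 3 of SW480-gRNA-B-all (edgeR adjusted p between 0.0595 and 0.0940), and with replicates 2 and 3 of that line summed (edgeR adjusted p = 0.0834). FEM1B, on the opposite strand and 670 bases beyond the 3′ end of ITGA11, was called lower in the same comparison (log2 fold change -1.43, edgeR adjusted p = 0.0475). It was not called in SW480-B against SW480, at -1.23 (edgeR adjusted p = 0.146), nor between the derived lines, at -0.16 (edgeR adjusted p = 0.549).

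Fibroblast markers were measured beside ITGA11. The sum of 9 such genes was 5.79 to 10.2 CPM for SW480, 2.95 to 9.53 CPM for SW480-B and 9.33 to 11.1 CPM for SW480-gRNA-B-all. In SW480-gRNA-B-all, COL1A2, COL3A1, DCN, LUM and FAP were at 0 counts in every library. LUM was called lower than in SW480 in both derived lines, and COL1A1 was called higher in SW480-gRNA-B-all. LUM passed the filter on low counts only through the counts of SW480, so its tests are a description. The part of such cells in the ITGA11 counts was not tested.

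ITGA5 (ENSG00000161638, chromosome 12 from 54789045 to 54813050, minus strand) encodes the alpha subunit of the classical fibronectin receptor. It had 35.8, 50.5 and 41.8 CPM for SW480, 58.5, 86.9 and 50.2 CPM for SW480-B and 109, 135 and 136 CPM for SW480-gRNA-B-all. The SW480-gRNA-B-all libraries were above all 6 others, and the lowest SW480-B library was just below the highest of SW480. The log2 fold change from SW480 was 1.53 (standard error 0.17, edgeR adjusted p = 0.00877), which is 2.88-fold. The call was lost without SW480 replicate 2 and without SW480-gRNA-B-all replicate 2 or 3 (edgeR adjusted p between 0.0501 and 0.0568), and with those last 2 libraries summed (edgeR adjusted p = 0.0542). The log2 fold change itself stayed between 1.45 and 1.68 over the 6 refits that each dropped 1 library.

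ITGAV encodes the alpha subunit of receptors for vitronectin and other RGD-bearing ligands. It had 43.6, 113 and 144 CPM for SW480, 151, 167 and 140 CPM for SW480-B and 148, 177 and 174 CPM for SW480-gRNA-B-all. Replicate 1 of SW480 was far below the other SW480 libraries, and all SW480-gRNA-B-all libraries were above SW480. The log2 difference of 0.70 between SW480-gRNA-B-all and SW480 did not pass the test (standard error 0.38, edgeR adjusted p = 0.272).

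ITGA3 and ITGA6 encode the alpha subunits of laminin receptors. ITGA3 had 87.2, 323 and 486 CPM for SW480, 415, 612 and 435 CPM for SW480-B and 857, 756 and 790 CPM for SW480-gRNA-B-all. All 3 SW480-gRNA-B-all libraries were above all 6 others, but the SW480 libraries spread more than 5-fold. The log2 difference from SW480 was 1.40 (standard error 0.53, edgeR adjusted p = 0.146), and it was called only with DESeq2 (adjusted p = 0.041), which called 5 members and 11.9% of all genes. Without SW480 replicate 1 the edgeR adjusted p was 0.0463 at a difference of 0.98, under 2-fold. ITGA6 had 308, 488 and 581 CPM for SW480, 527, 1022 and 586 CPM for SW480-B and 498, 573 and 563 CPM for SW480-gRNA-B-all. Its lines overlapped, with a log2 difference of 0.21 between SW480-gRNA-B-all and SW480 (standard error 0.24, edgeR adjusted p = 0.593).

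ITGB1, the common partner of most of these alpha subunits, overlapped between all 3 lines. It had 363, 305 and 243 CPM for SW480, 259, 366 and 267 CPM for SW480-B and 394, 341 and 346 CPM for SW480-gRNA-B-all. ITGB4, the hemidesmosomal partner of ITGA6, had 361, 434 and 512 CPM for SW480, 412, 523 and 430 CPM for SW480-B and 349, 301 and 324 CPM for SW480-gRNA-B-all. The SW480-gRNA-B-all libraries of ITGB4 were below all 6 others, while those of ITGB1 overlapped both lines. The log2 differences of SW480-gRNA-B-all from SW480 were 0.20 for ITGB1 (standard error 0.21, edgeR adjusted p = 0.556) and -0.46 for ITGB4 (standard error 0.18, edgeR adjusted p = 0.155).

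ITGAX (ENSG00000140678, chromosome 16 from 31366455 to 31394320) encodes CD11c, which pairs with the product of ITGB2 and is known from dendritic cells and other leukocytes. Its counts were 0, 6 and 3 for SW480, 43, 40 and 18 for SW480-B and 39, 34 and 37 for SW480-gRNA-B-all. Both derived lines were above SW480 without overlap, at 0.647 to 1.65 CPM against at most 0.208 CPM. The summed counts were 12.0-fold higher in the activated line than in SW480 (95% exact counting interval 6.10 to 26.9) and 11.9-fold higher in SW480-B (6.04 to 26.9). In SW480-gRNA-B-all the fitted log2 fold change was 3.49 (standard error 0.75, edgeR adjusted p = 0.0396). The call was lost without SW480 replicate 2 and without replicate 1, 2 or 3 of SW480-gRNA-B-all (edgeR adjusted p between 0.0999 and 0.140, log2 fold change 2.92 to 4.44 over all 6 left-out refits, the lowest without SW480 replicate 1 and the highest without SW480 replicate 2), and with replicates 2 and 3 of that line summed (edgeR adjusted p = 0.133).

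Leukocyte markers were measured beside ITGAX. The sum of 10 such genes was 1.74 to 4.38 CPM in SW480, 5.11 to 8.52 CPM in SW480-B and 5.29 to 7.24 CPM in SW480-gRNA-B-all. MS4A1, one of these genes, was at 0 counts in all libraries of the 3 lines, PTPRC and CD3E in all libraries of SW480-gRNA-B-all, and CD68 in those of SW480. CD14 had 62 counts in the SW480 libraries together, 40 for SW480-B and 177 for SW480-gRNA-B-all. LYZ had 90, 246 and 65 in the same order, and CD3E had 13, 47 and 0. DESeq2 called CD14, LYZ and CD3E between the derived lines and none of the list against SW480, and edgeR called none in any comparison. ITGB2 had 0.491 to 2.12 CPM in SW480, 1.46 to 3.69 CPM in SW480-B and 1.93 to 4.90 CPM in SW480-gRNA-B-all, and was not called in any comparison. ITGAM and ITGAD, which flank ITGAX, had 85 and 0 counts in the 9 libraries together and were too low for the test. The ITGAM counts were 4, 3 and 7 for SW480, 31, 8 and 3 for SW480-B and 20, 8 and 1 for SW480-gRNA-B-all, with overlap between the lines. The part of such cells in the ITGAX counts was not tested.

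**Figure D2:**
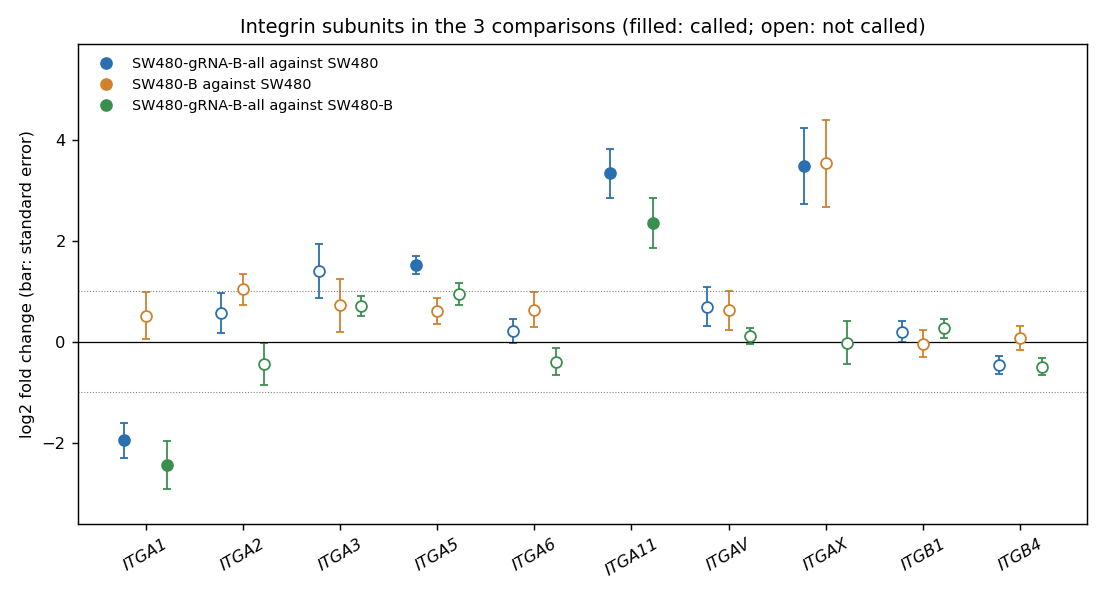
Log2 fold change (vertical axis) of each integrin subunit in the 3 comparisons, with standard errors as bars, filled circles for called changes and dotted lines at 2-fold; ITGA11 was not tested in SW480-B against SW480. ITGA1 falls by 1.95 and 2.44 in the comparisons of SW480-gRNA-B-all and lies at 0.52 in SW480-B against SW480.

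In SW480-B, none of the 9 members tested was called against SW480, where 1.34% of 16106 genes were called (0.0931% higher and 1.25% lower). ITGA11 did not pass the filter. At an unadjusted p under 0.05 from edgeR, 3 members differed, namely ITGA2, ITGA5 and ITGAX, and 15.8% of all genes tested did so. DESeq2 called 1 member, ITGAX, and 5.45% of all genes. ITGAX passed the filter on low counts only through the counts of SW480-B, so its test and the member counts that include it are a description. Its log2 difference was 3.53 (SE 0.87, edgeR adjusted p = 0.112). ITGA2 followed with 1.04 (standard error 0.30, edgeR adjusted p = 0.164), and these were the 2 members whose SW480-B libraries all lay above SW480, where 11.7% of all genes tested did so. No member lay wholly below SW480, as 10.8% of all genes did (22.5% in either direction). ITGA1, ITGA3, ITGA5, ITGA6 and ITGAV differed by 0.52 to 0.72 on the log2 scale, with edgeR adjusted p between 0.298 and 0.623. ITGB1 and ITGB4 differed by -0.03 and 0.07. The members' median was 0.62, beside -0.004 over all genes tested. Same-numbered libraries of these 2 lines deviated together, and a fit that blocked on that number again called 0 members. The differences, standard errors and p-values given here are from the fit without that block, so they leave the pairing out.

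SW480-gRNA-B-all was also compared with SW480-B directly, which tests whether the members differ between these lines. The source of BASP1, endogenous or ectopic, cannot be told apart there from vector, drug selection and cloning. ITGA1 was called lower and ITGA11 higher, that is 2 of 10 members, where 6.68% of 15846 genes were called (2.31% higher and 4.37% lower). The log2 fold change of ITGA1 was -2.44 (SE 0.48, edgeR adjusted p = 0.0193). The ITGA1 call was lost without SW480-B replicate 1 or 2 and without SW480-gRNA-B-all replicate 2 or 3 (edgeR adjusted p between 0.0646 and 0.0731), and with no filter on low counts (edgeR adjusted p = 0.130). For ITGA11, which passed the filter only through the counts of SW480-gRNA-B-all so that its test is a description, it was 2.35 (SE 0.50, edgeR adjusted p = 0.0243), and the summed counts were 5.31-fold higher (95% exact counting interval 2.48 to 13.0). The ITGA11 call held in 1 of the 6 refits that each dropped 1 library, the fit without SW480-gRNA-B-all replicate 1, and in the others the edgeR adjusted p was 0.0504 to 0.124.

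In the same comparison ITGA5 passed the adjusted p but not the 2-fold limit, with a log2 fold change of 0.95 (standard error 0.22, edgeR adjusted p = 0.0362). It was called, at 1.20 and 1.06, without SW480-B replicate 2 and without SW480-gRNA-B-all replicate 1 (edgeR adjusted p = 0.03 and 0.0406). ITGA3 differed by 0.71 (standard error 0.20, edgeR adjusted p = 0.0699) and ITGB4 by -0.49 (standard error 0.17, edgeR adjusted p = 0.125), both with no overlap between libraries. The members' median log2 fold change was 0.05, with 5 above 0 and 5 below, beside -0.004 over all genes tested. Libraries did not overlap for 5 members, 3 higher and 2 lower, and for 30.3% of all genes tested (14.9% higher and 15.5% lower). An unadjusted edgeR p under 0.05 was found for 5 members and 24.4% of all genes. ITGAX, by contrast, had summed counts 1.01-fold those of SW480-B, with an interval of 0.760 to 1.33. ITGA2, ITGA6, ITGAV and ITGB1 differed by -0.43 to 0.27 on the log2 scale and overlapped. The 3 comparisons share libraries in pairs, so their values are not independent of each other.

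The make-up of the alpha-subunit transcripts was compared within each library. As a share of the summed CPM per kb of the 8 alpha subunits, ITGA6 took 54.5%, 43.1% and 41.5% in SW480, 38.5%, 46.5% and 43.2% in SW480-B, and 26.3%, 31.0% and 29.97% in SW480-gRNA-B-all. ITGA3 took 18.3%, 33.9% and 41.3% in SW480, 36.1%, 33.2% and 38.2% in SW480-B, and 53.8%, 48.7% and 50.0% in SW480-gRNA-B-all. With these lengths ITGA3 exceeded ITGA6 in every SW480-gRNA-B-all library and was below it in the other 6. With the length of all annotated exons the shares of ITGA3 in SW480-gRNA-B-all were 43.5%, 39.1% and 40.4% and those of ITGA6 37.1%, 43.5% and 42.3%, so that ITGA3 was below ITGA6 in 2 of 3 libraries. ITGA1 took 2.07% to 7.28% in SW480 and 0.454% to 0.847% in SW480-gRNA-B-all. The ratio of ITGA3 to ITGA6 per kb was 1.57 to 2.05 in SW480-gRNA-B-all, against 0.337 to 0.995 in SW480 and 0.713 to 0.938 in SW480-B. With all exons it was 0.899 to 1.17, against 0.193 to 0.570 and 0.408 to 0.537. The length scales all libraries alike and leaves the comparison between lines as it is. The exact two-sided permutation test gave p = 0.1 against either line, the smallest possible, and 0.15 after adjustment over the 9 comparisons.

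The ratio of ITGB4 to ITGB1 per kb was 0.559 to 0.594 in SW480-gRNA-B-all, against 0.630 to 1.33 in SW480 and 0.905 to 1.02 in SW480-B. With the length of all exons the same ratio was 1.90 to 2.02 in SW480-gRNA-B-all, 2.14 to 4.54 in SW480 and 3.08 to 3.47 in SW480-B. The ranges of SW480 and SW480-B did not overlap with that of SW480-gRNA-B-all, and the choice of length cannot change this. The exact permutation test gave the same p of 0.1, and 0.15 after adjustment. Summed over the 8 alpha subunits, SW480 spanned 97.2 to 241 CPM per kb, SW480-B 233 to 377, and SW480-gRNA-B-all 318 to 325.

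**Figure D3:**
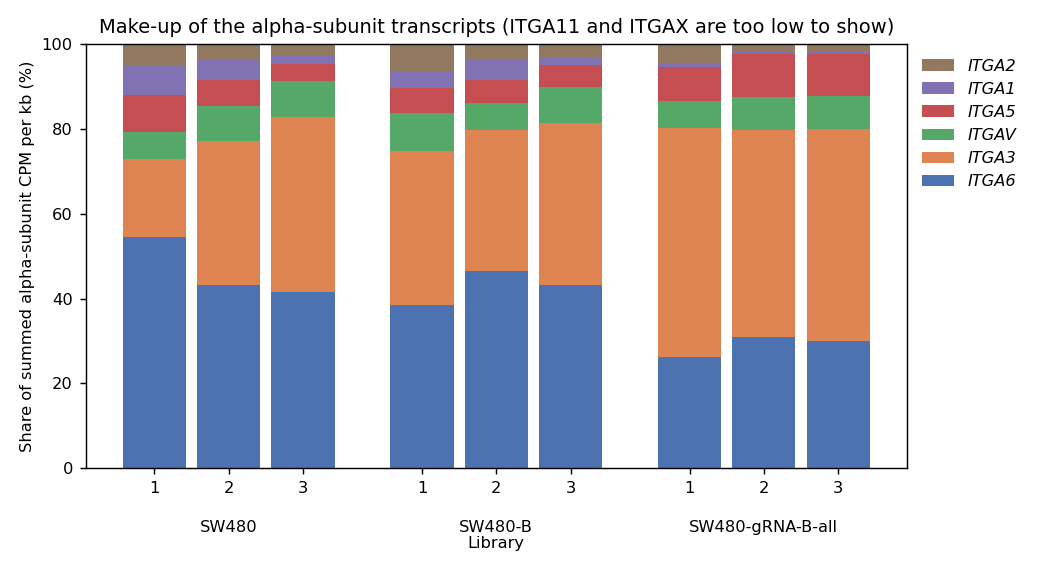
Share (%, vertical axis) of each alpha subunit in the summed CPM per kb of canonical transcript of the 8 alpha subunits, 1 bar per library of the 3 lines (horizontal axis). ITGA3 takes 48.7% to 53.8% in SW480-gRNA-B-all and at most 41.3% in the other libraries.

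The members were also set beside the tested genes within 5 Mb of them. In SW480-gRNA-B-all against SW480, the 30 tested genes around ITGA1 had a median log2 difference of -0.04, and the 194 around ITGA5 had 0.38. Around ITGA11 the median of 87 genes was -0.33, and around ITGAX that of 117 genes was 0.07. Of the genes directly flanking the members, DLX3 beside ITGA3 was called in this comparison, besides FEM1B (log2 fold change of DLX3 -3.74, edgeR adjusted p = 0.0061).

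**Figure D4:**
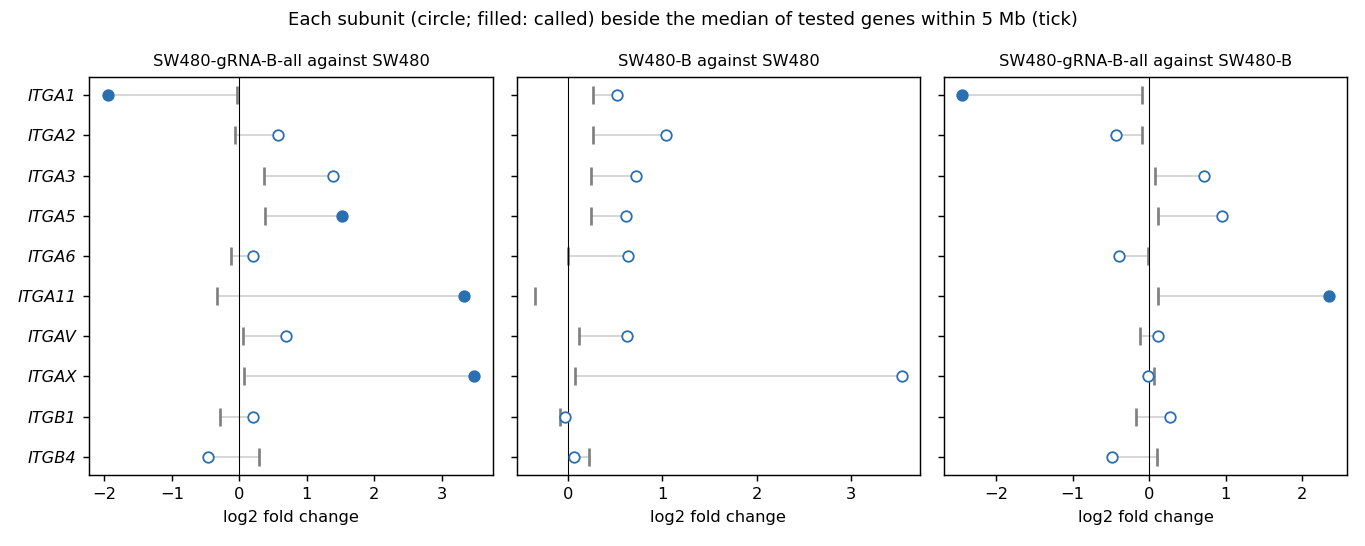
Log2 fold change (horizontal axis) of each integrin subunit (circles, filled where called) beside the median of tested genes within 5 Mb (ticks) in the 3 comparisons. ITGA1 at -1.95 stands beside a local median of -0.04 in the activated line against SW480.

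The gene most like each called member over the 9 libraries was taken as the one with the smallest root mean square difference of centred log2(CPM + 0.5) values, among 13734 genes. For ITGA1 it was FGF18 (0.30), a growth factor gene with 9.60 to 18.1 CPM in SW480, 9.27 to 22.1 CPM in SW480-B and 2.61 to 3.52 CPM in SW480-gRNA-B-all. For ITGA5 it was TUBG2 (0.16), for ITGA11 ALAD (0.09) and for ITGAX MR1 (0.21). The added 0.5 CPM exceeds most values of ITGA11 and narrows its pattern. The 9 libraries fall into 3 lines, and the likeness is given as a description with no test.

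Genes that act with the integrins were counted from lists. Of 16 other integrin subunits, 9 were tested in each comparison and 0 were called by edgeR. At an unadjusted edgeR p under 0.05, 3 differed between the activated line and SW480, 2 between SW480-B and SW480 and 4 between the derived lines, beside 28.4%, 15.8% and 24.4% of all genes tested. DESeq2 called 4, 1 and 4 of the 16 in these comparisons, beside 11.9%, 5.45% and 8.41% of all genes, with ITGA2B, ITGB3 and ITGB7 in both comparisons of SW480-gRNA-B-all. The most abundant of them, ITGB5, a partner of ITGAV, had 77.2, 317 and 689 CPM for SW480, 471, 482 and 669 CPM for SW480-B and 515, 944 and 950 CPM for SW480-gRNA-B-all. Its log2 difference of 1.12 between SW480-gRNA-B-all and SW480 did not pass the test (standard error 0.68, edgeR adjusted p = 0.317). ITGA7, a laminin receptor subunit, had 15.1 to 48.9 CPM in SW480, below the 65.5 to 110 CPM of SW480-B and the 73.2 to 89.7 CPM of SW480-gRNA-B-all, with edgeR adjusted p of 0.163 and 0.0857. DESeq2 called ITGA7 in both of these comparisons with SW480.

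Among 24 matrix ligand genes, 18 were tested between the activated line and SW480. Of these, 1 was called higher and 1 lower, beside 1.89% and 4.66% of all genes tested. An unadjusted edgeR p under 0.05 was found for 8, beside 28.4% of all genes. DESeq2 called 5 of the 24, namely COL1A1, COL4A1, FN1 and the laminin chains LAMA2 and LAMB3, beside 11.9% of all genes. COL4A1, the basement membrane collagen chain bound by the receptor of ITGA1, had 2881, 1162 and 488 counts in SW480, 3, 9 and 5 in SW480-B, and 1, 1 and 4 in SW480-gRNA-B-all. Relative to SW480, its counts were 251-fold lower in SW480-B (95% exact counting interval 156 to 431, edgeR adjusted p = 0.00935) and 769-fold lower in SW480-gRNA-B-all (353 to 2097, edgeR adjusted p = 0.00725). COL4A1 passed the filter on low counts only through the counts of SW480, so its tests and the list counts that include it are a description. With 1 library left out, the fitted log2 fold change ran from -8.39 (without SW480-B replicate 2) to -7.08 (without SW480 replicate 1) in SW480-B and from -10.42 (without SW480-gRNA-B-all replicate 3) to -8.66 (without SW480 replicate 1) in SW480-gRNA-B-all. The call was lost without any 1 of the SW480-B libraries in the first comparison (edgeR adjusted p up to 0.13) and without SW480 replicate 2 in the second (edgeR adjusted p = 0.0501). COL4A2, a further collagen gene of this list, had 36.5, 43.8 and 47.6 CPM for SW480, 48.7, 40.2 and 45.8 CPM for SW480-B and 21.3, 39.0 and 40.1 CPM for SW480-gRNA-B-all. Its log2 difference from SW480 was 0.09 in SW480-B and -0.39 in SW480-gRNA-B-all (edgeR adjusted p = 0.878 and 0.35), and it was not called. COL1A1, a chain of fibrillar collagen, was 2.31-fold higher in the activated line than in SW480 (edgeR adjusted p = 0.0362), a call lost without SW480 replicate 2 or any 1 of the SW480-gRNA-B-all libraries (edgeR adjusted p up to 0.179), with those replicates 2 and 3 summed (0.162), with all 9 libraries in 1 fit (0.0942) and with the replicate block (0.0507). FN1, the ligand of the ITGA5 receptor, had 32.2, 217 and 155 CPM for SW480, 238, 203 and 175 CPM for SW480-B and 19.5, 40.5 and 42.0 CPM for SW480-gRNA-B-all. Between the derived lines it was called 6.09-fold lower in SW480-gRNA-B-all (edgeR adjusted p = 0.00299), and so in all 6 refits that each dropped 1 library. NPNT, a basement membrane ligand, was 5.36-fold lower in that comparison (edgeR adjusted p = 0.0113), and was not called without SW480-B replicate 2 or SW480-gRNA-B-all replicate 3 (edgeR adjusted p = 0.0554 and 0.0533), nor with the summed replicates 2 and 3 of the activated line (0.0503). Of 16 ligand genes tested between the derived lines, FN1 and NPNT were the 2 called, both lower, beside 4.37% of all genes tested.

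Of the 21 adhesion plaque genes and kinases, 2 were called higher and none lower in the activated line against SW480, beside 6.55% of all genes called in either direction. The list's median log2 difference was 0.59, beside -0.05 over all genes tested. In 13 of the 21 all libraries of the activated line were above SW480 and in 2 below, and 13 had an unadjusted edgeR p under 0.05, beside 19.1%, 18.6% and 28.4% of all genes. LIMS2 and TNS1, an adaptor and a tensin of adhesion sites, were 5.08-fold and 4.35-fold higher (edgeR adjusted p = 0.0481 and 0.0461). Both calls were lost without SW480 replicate 2 and without any 1 of the SW480-gRNA-B-all libraries, and that of LIMS2 also without SW480 replicate 3 (edgeR adjusted p from 0.053 to 0.16), and both with replicates 2 and 3 of the activated line summed (0.146 and 0.148). DESeq2 called 6 genes of the list and 11.9% of all genes. Against SW480-B, 1 gene of the list was called higher and 3 lower, beside 2.31% and 4.37% of all genes tested. LIMS2 was higher and LIMS1, ACTN4 and NEDD9 were lower. However, ACTN4 and NEDD9 were not called without SW480-gRNA-B-all replicate 2 or 3, nor NEDD9 without SW480-B replicate 2 (edgeR adjusted p from 0.0643 to 0.103). ACTN4 and NEDD9 were also lost with those libraries summed (0.101 and 0.0974), and NEDD9 with all 9 libraries in 1 fit (0.177). LIMS1 and LIMS2 are related adaptors, and LIMS1 was 2.62-fold lower where LIMS2 was 5.40-fold higher (edgeR adjusted p = 0.00575 and 0.0043). Of the 9 integrin activators and inactivators, TLN2, a talin, was called against SW480-B (2.42-fold higher, edgeR adjusted p = 0.0193), but not without SW480-B replicate 2 or SW480-gRNA-B-all replicate 2 or 3 (edgeR adjusted p from 0.051 to 0.102), nor with those last 2 libraries summed (0.0909) or all 9 libraries in 1 fit (0.0732). TLN2 was the only call among these 9 genes there, beside 6.68% of all genes tested. Against SW480, edgeR and DESeq2 called 0 of these genes in the activated line, where 1 had an unadjusted edgeR p under 0.05, beside 28.4% of all genes. Among 12 partners of hemidesmosomes and tetraspanins, 1 was called lower in the activated line against SW480 and 1 against SW480-B, beside 4.66% and 4.37% of all genes tested. In both it was KRT5, a keratin linked to hemidesmosomes, 8.37-fold lower than in SW480 (edgeR adjusted p = 0.039) and 6.93-fold lower than in SW480-B (edgeR adjusted p = 0.0111). These calls were lost without SW480 replicate 2 or any 1 of the SW480-gRNA-B-all libraries in the first comparison (edgeR adjusted p from 0.101 to 0.129), with replicates 2 and 3 of that line summed (0.127) and with no filter (0.08), and without SW480-B replicate 2 in the second (edgeR adjusted p = 0.0512). In SW480-B against SW480 the only edgeR call over these 5 lists was COL4A1. The 21 adhesion plaque genes and kinases had a median log2 difference of 0.54 there, beside -0.004 over all genes tested. In 7 of them all SW480-B libraries were above SW480 and in 0 below, beside 11.7% and 10.8% of all genes. An unadjusted edgeR p under 0.05 was found for 4 of them, beside 15.8% of all genes.

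**Figure D5:**
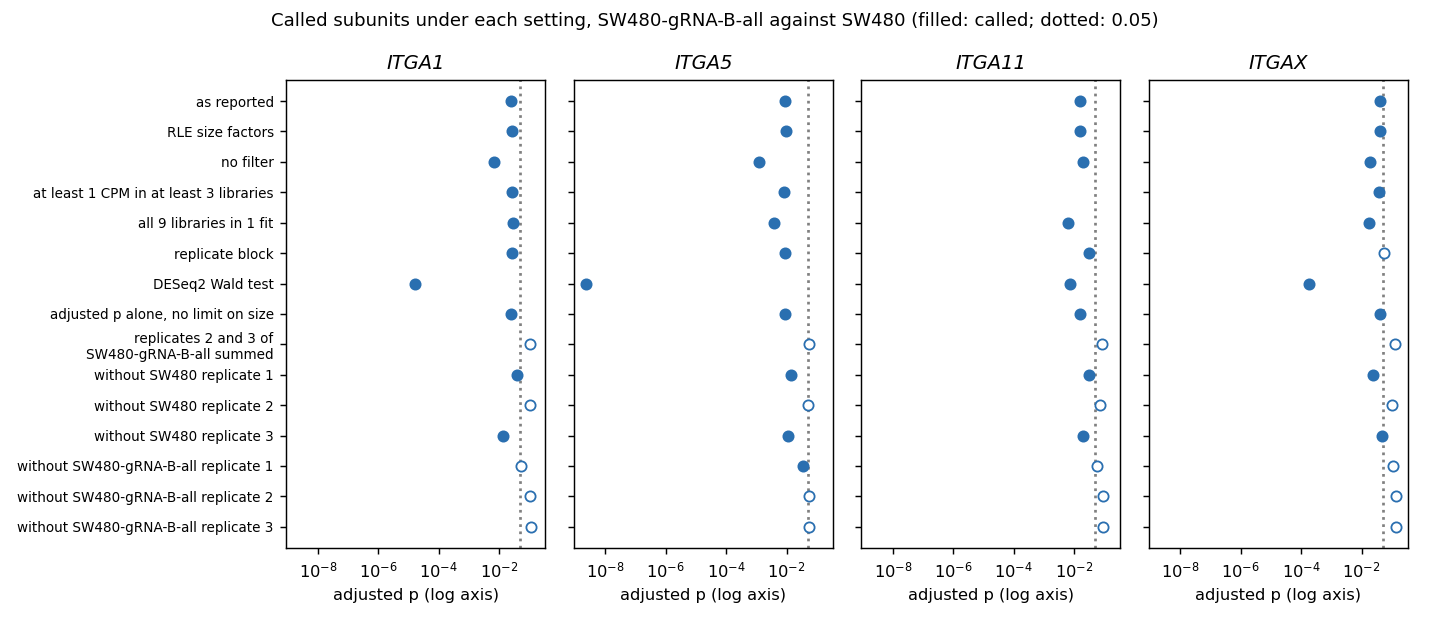
Adjusted p (horizontal log axis) of ITGA1, ITGA5, ITGA11 and ITGAX in SW480-gRNA-B-all against SW480 under each setting (vertical axis); filled circles are called and the dotted line marks 0.05. ITGA5 reaches 0.00877 as reported and 0.0568 without SW480-gRNA-B-all replicate 2.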

How the data were processed

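Poly(A) RNA of the 3 SW480 lines (n = 3 libraries each) was sequenced with a stranded protocol and aligned to GRCh37 by the authors, who deposited whole-number counts of fragments per Ensembl gene. The aligner named in the file headers is STAR. The counting program and its strand setting are not given in the sources used here. Sequencing metrics were deposited too and not used. Lines that name no gene (no feature, 5.22% to 9.93%, and ambiguous, 3.09% to 3.44%) were left out. Symbols were found for 55665 identifiers.

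The 6 libraries of each comparison were fitted with edgeR 4.0.16 in R 4.3.3 (filterByExpr with least count 10 and least total 15, TMM, robust glmQLFit, glmQLFTest). DESeq2 1.42.0 was an alternative, as were RLE size factors, other filters, all 9 libraries in 1 fit, a replicate block, left-out libraries, no limit on size, and the closest libraries of the activated line, its replicates 2 and 3, added together. Fits were tested on simulated data. Same-numbered libraries of SW480-B and SW480 correlated in their deviations from the line mean at 0.292, 0.322 and 0.395, so these numbers were taken to pair them. The values reported for that comparison are still those of the fit without a block, and the blocked fit is an alternative. The labels do not say what a number marks. Coordinates are from a GRCh37 lift of GENCODE release 44, promoters from RefSeq.

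The members and gene lists were chosen with earlier results of these data known. The rule for named genes covered all 10 members, BASP1, up to 4 called genes per list, direction and comparison (or the 3 most abundant), the gene most like each called member, and direct neighbours. The values of 1 listed marker gene are not reported here.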

Additional observations from a re-analysis of the deposited data

Results flagged for a closer look

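ITGA1 and ITGA11 differed between SW480-gRNA-B-all and SW480-B in the direct test over 6 libraries. The log2 fold change was -2.44 for ITGA1 (standard error 0.48, edgeR adjusted p = 0.0193, lower in 3 of 3 libraries). This call held in 2 of the 6 refits that each dropped 1 library, and was lost with the summed replicates 2 and 3 of the activated line, SW480-gRNA-B-all, (edgeR adjusted p = 0.0739) and with no filter on low counts (edgeR adjusted p = 0.130). For ITGA11 the log2 fold change was 2.35, from 46 counts against 8. ITGA11 passed the filter only through the line where it is high, so this value is a description. Its call held in 1 of the 6 refits and was lost with the summed libraries (edgeR adjusted p = 0.106). Groups of 3 libraries were not searched for single libraries that stand apart.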

How the results depend on the processing

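Against SW480, 4 members were called in SW480-gRNA-B-all, and 0 with replicates 2 and 3 of that line summed, and between 0 and 4 over the fits that each left out 1 library (0 without SW480 replicate 2 or SW480-gRNA-B-all replicate 2 or 3). In SW480-B against SW480, where 0 were called, 1 was called with no filter, 1 with all 9 libraries in 1 fit and 1 with DESeq2, ITGAX each time, and 0 in every fit with a library left out. In SW480-gRNA-B-all against SW480-B, where 2 were called, 1 was called with no filter, 1 with at least 1 CPM in at least 3 libraries (ITGA11 is then not tested), 0 with the summed libraries, and 0 to 3 with a library left out. The causes were not tested.

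With the replicate block, the number of called members was 3 in SW480-gRNA-B-all against SW480 (ITGAX was lost, adjusted p = 0.0546), 0 in SW480-B against SW480 and 2 in SW480-gRNA-B-all against SW480-B. Numbers were taken to pair the samples only in SW480-B against SW480, where the block changed no call of a member. In SW480-gRNA-B-all against SW480, replicates 1, 2 and 3 correlated at 0.292, -0.037 and 0.267. Against SW480-B the same 3 values were 0.236, -0.087 and 0.242. Whether numbers pair samples in these comparisons was not tested.

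Signs turned only in members that were not called. ITGAX in SW480-gRNA-B-all against SW480-B, -0.013 as reported, was 0.068 with the block and 0.029 with the summed libraries, and -0.33 to 0.26 with a library left out. With a library left out, ITGA2 in SW480-gRNA-B-all against SW480 ranged from -0.022 to 0.81, and in SW480-B against SW480 ITGA1 ranged from -0.055 to 0.89, ITGB1 from -0.20 to 0.14 and ITGB4 from -0.043 to 0.19.

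Over all genes, calls in SW480-gRNA-B-all against SW480 were 304 higher and 751 lower, 860 and 1520 with DESeq2, and 20 and 77 with the summed libraries. In SW480-B against SW480 they were 15 and 201, 198 and 537 with no filter, 11 and 132 with at least 1 CPM, 92 and 360 with all 9 libraries, and 366 and 730 with DESeq2. In SW480-gRNA-B-all against SW480-B they were 366 and 693, 181 and 473 with all 9 libraries, and 141 and 305 with the summed libraries. Calls in either direction over the left-out fits were 8 to 2659, 0 to 921 and 420 to 1548 in these comparisons. With 3 libraries a line, members at under 2 CPM such as ITGA11 and ITGAX are limited by counting. With the exon length in place of the canonical transcript, added after the data were seen, the mean ratio of ITGA3 to ITGA6 in SW480-gRNA-B-all was 1.01 in place of 1.76.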

Other observations

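ITGB3, a beta partner of ITGAV that did not pass edgeR's filter on low counts and was called by DESeq2 in both comparisons of SW480-gRNA-B-all, is named after its values were seen. It had 0, 1 and 1 counts in the SW480 libraries, 0, 1 and 0 in the SW480-B libraries, and 23, 8 and 18 in the SW480-gRNA-B-all libraries, at most 0.778 CPM. The summed counts of SW480-gRNA-B-all were 24.1-fold those of SW480, with a 95% exact counting interval of 6.31 to 204, and 45.2-fold those of SW480-B, with an interval of 7.75 to 1823.

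Replicate 1 of SW480-gRNA-B-all stood apart from replicates 2 and 3 in some adhesion genes, also named after their values were seen. LAMA3, a laminin chain, had 108, 48.3 and 48.3 CPM in these libraries, beside 117, 46.4 and 46.6 CPM of ITGA2. NRP1, the neighbour of ITGB1, had 169, 28.2 and 29.2 CPM. Replicate 1 of SW480 also stood apart from its replicates 2 and 3, in both directions. In these SW480 libraries ZYX had 51.0, 130 and 139 CPM and THBS1 4.55, 35.1 and 35.1 CPM, whereas LAMB3 had 553, 175 and 100 CPM.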
